A study of Homo sapiens with 9 samples.

Results

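The genes described here are the integrins and laminins, chosen by symbol: every gene of the deposited tables named ITGA plus 1 or 2 characters, ITGB1 to ITGB8, or LAMA, LAMB or LAMC plus a digit. The rule matched 38 of 18970 gene symbols and used no measured value, though it was set with earlier results of these data known. They were 18 integrin alpha subunits, 8 integrin beta subunits, 5 laminin alpha chains, 4 laminin beta chains and 3 laminin gamma chains. They were measured in cranial neural crest cells (CNCCs) made from the human embryonic stem cell line H9 and used at passage 4, after growth on fibronectin-coated wells. Every culture carried degron-tagged SOX9, a transcription factor of the neural crest and of cartilage, whose protein is degraded once the compound dTAGV-1 binds the tag. There were 3 groups of 3 samples each, with 0h, 3h and 24h of dTAGV-1 at 500 nM. The labels name dTAGV-1 for the 0h samples too. In the study's methods, cells were labelled with either DMSO, the vehicle, or 500 nM dTAGV-1 in the medium, by condition. What each 0h sample received is not given per sample. The labels give a relative SOX9 level of 100% at 0h and 0% at 3h and 24h. New RNA was labelled in all groups with 100 uM 4-thiouridine (4sU) during a pulse of 2 h, which began 1 h (3h group) or 22 h (24h group) after the compound was added. Each group held the same 3 cultures, S9CC13_R6, S9CC47_R5 and S9CC47_R6, named by clone and differentiation batch. There were 2 clones and 2 batches, and batch R5 held 1 culture. Cells without the tag given dTAGV-1 were not analysed here, so an effect of the compound itself and an effect of SOX9 loss cannot be told apart.

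In SLAM-seq, RNA made during the 4sU pulse carries the base analogue and is read after alkylation as T>C conversions. T>C reads therefore report recently made RNA, while total reads report all RNA of a gene present at harvest. The unconverted reads of a gene (total less T>C) are mostly older RNA, together with recent RNA that happened to carry no conversion. The libraries read the 3′ ends of polyadenylated RNA, so read counts were not divided by gene length. Values below are normalized reads (counts divided by a DESeq2 size factor per library), and a gene was called at an adjusted p under 0.1 in the Wald test of DESeq2 over all genes tested. Changes are log2 fold changes with their standard error (SE), from 3 cultures at each time.

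Integrins are receptors of one alpha and one beta subunit that span the membrane and join the extracellular matrix to the actin cytoskeleton. The alpha subunit largely sets the ligand. ITGA3, ITGA6 and ITGA7 serve laminin receptors, ITGA1, ITGA2, ITGA10 and ITGA11 serve collagen receptors, and ITGA5, ITGA8, ITGAV and ITGA2B serve receptors of the RGD peptide motif found in fibronectin and vitronectin. Laminins are trimers of an alpha, a beta and a gamma chain that build basement membranes. Neural crest cells leave an epithelium, cross such membranes and migrate through matrix, for which integrins and laminins are well known.

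The libraries held between 16955633 and 28782678 total reads, and between 3130673 and 5475800 T>C reads. T>C reads made up 18.5% to 20.1% of a library at 0h, 15.9% to 19.5% at 3h and 19.8% to 21.3% at 24h. In mean total reads, all 8 neural crest markers examined were above 1 CPM (counts scaled to equal library totals) at every time. None of the neural progenitor, epithelial or leukocyte markers reached that level. Of 4 pluripotency markers, LIN28A and DPPA4 were above it while POU5F1 and NANOG were not, and the summed level of the list went from 350–414 CPM of total reads at 0h to 281–306 CPM at 24h. SOX9 itself was read at 9493, 9961 and 9914 normalized T>C reads at 0h (cultures in the order S9CC13_R6, S9CC47_R5, S9CC47_R6, as below), 18399, 15047 and 17069 at 3h, and 23542, 19883 and 20923 at 24h. Its T>C reads rose by a log2 fold change of 0.77 ± 0.08 (SE) at 3h and 1.15 ± 0.08 at 24h, with no overlap between groups. The compound acts on the protein, so the SOX9 transcript is no check of depletion.

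Of the 38 genes, 23 reached 1 CPM of T>C reads in 3 samples, namely 11 integrin alpha subunits, 4 beta subunits, 4 laminin alpha chains, 2 beta chains and 2 gamma chains. ITGB1, the beta subunit shared by most integrins, held 51.3% of the normalized T>C reads of these 23 genes at 0h. Its normalized T>C reads were 2715, 2588 and 2276. LAMB1 followed with 697, 661 and 663, then ITGB5, the beta partner of ITGAV in a vitronectin receptor, with 392, 318 and 303. LAMC1 had 324, 285 and 248 and LAMA1 had 281, 262 and 290. LAMA1, LAMB1 and LAMC1 are the chains of laminin-111, the laminin of early embryonic basement membranes, and they were the highest laminin genes of their chain types in T>C reads. ITGB1 and LAMB1 each lay above the next gene in all 3 cultures. LAMC1 overlapped with both ITGB5 and LAMA1, while all 3 samples of ITGB5 lay above those of LAMA1.

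Among alpha subunits, ITGA9 (147, 125 and 164 normalized T>C reads at 0h) and ITGA6 (154, 105 and 80) led, and their ranges overlapped. ITGA5, ITGAE, ITGAV, ITGA1 and ITGA4 followed with means between 74.2 and 94.99, and neighbours in that order overlapped. ITGA11, ITGA2, ITGA3 and ITGA8 had means between 5.82 and 28.8. ITGAE, the alpha subunit of a receptor known from T cells in epithelia, overlapped with ITGAV in these cells. No leukocyte marker reached a mean of 1 CPM of total reads at any time, while 1 of 5 passed the limit in T>C reads. The remaining genes above the limit, ITGB7, ITGB8, LAMA3, LAMA4, LAMA5, LAMB2 and LAMC3, had means between 1.21 and 22.5.

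The 15 genes below the limit included ITGA10, ITGA2B, ITGA7, ITGAD, ITGAL, ITGAM, ITGAX, ITGB2, ITGB3, ITGB4, ITGB6, LAMA2, LAMB3 and LAMB4. ITGAD, ITGAM, ITGAX, ITGB6 and LAMB3 had 0 reads in both tables. ITGA7 had the most, with 229 total reads over the 9 samples, of which 22 were T>C reads. ITGB4, which pairs with ITGA6 in epithelial hemidesmosomes, had 45 total and 7 T>C reads over the 9 samples, against 66263 and 22056 for ITGB1, the other beta partner of ITGA6.

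**Figure D1:**
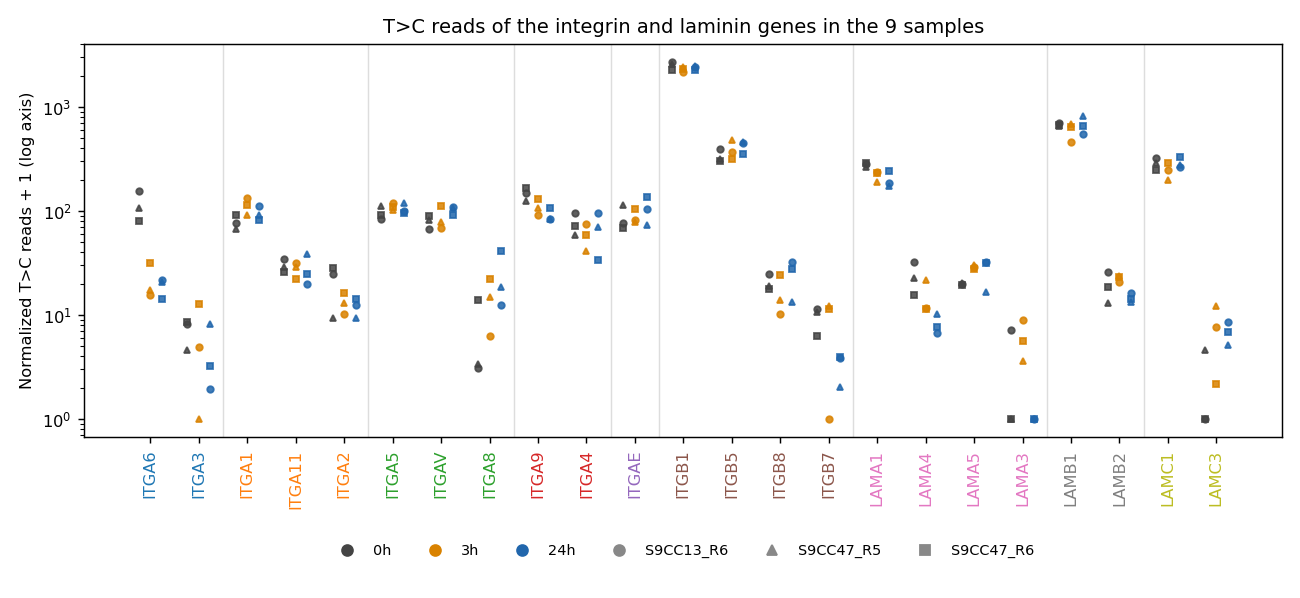
Normalized T>C reads plus 1 (log axis) of the 23 genes with at least 1 CPM of T>C reads in 3 samples. Each point is 1 sample, colours give the time of dTAGV-1, symbols the culture, and the colours of gene names their subunit or chain class. ITGB1 stands above all others at every time, and the 3 samples of ITGA6 at 0h stand above all 6 later ones.

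For some genes the same culture was highest at all times. ITGA8, an alpha subunit that binds RGD ligands such as nephronectin, was lowest in S9CC13_R6 and highest in S9CC47_R6 at all times, with averages over time of 6.25 and 24.9 normalized T>C reads. ITGA4, the alpha subunit of a receptor for fibronectin and VCAM1, was highest in S9CC13_R6 at all times, with an average of 87.2 against 53.9 in S9CC47_R6. These differences come from single cultures of a clone and batch and have no replicate.

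The first question was which of these genes changed in recent transcription after dTAGV-1. At 3h, 1 of 23 genes was called in T>C reads, where 1.79% of 12037 genes were called. This gene was ITGA6, and it fell. At 24h, 3 of 23 were called, all lower (ITGA6, ITGA9 and LAMA1), where 4.98% of all genes were called. No beta subunit and no laminin beta or gamma chain was called in T>C reads at either time. The median log2 fold change of the 23 genes was -0.16 at 3h and -0.05 at 24h, against -0.01 and 0.00 over all genes tested. Summed over all 18 alpha subunits, T>C reads were 170–186 CPM at 0h, 136–180 at 3h and 154–162 at 24h. Summed over the laminin alpha chains they were 73.6–82.1 CPM at 0h, 57.8–69.0 at 3h and 48.4–68.7 at 24h, so that both later groups lay below 0h in every culture.

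**Figure D2:**
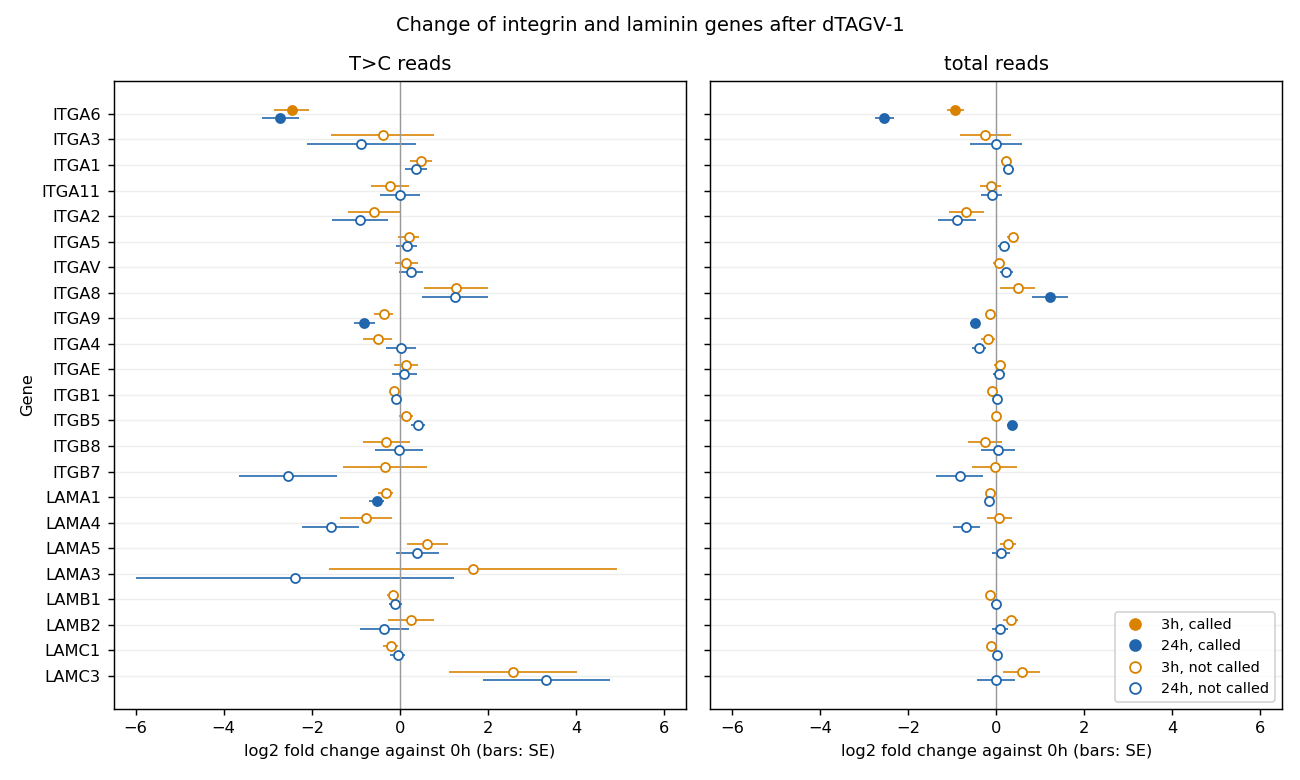
Log2 fold change against 0h (horizontal axis; bars are SE) of the 23 genes in T>C reads (left) and of those tested in total reads (right), at 3h in orange and at 24h in blue. Filled points were called at an adjusted p under 0.1. ITGA6 is the one gene with filled points at both times on both sides, and wide bars belong to genes with few reads.

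ITGA6, the alpha subunit of the laminin receptors alpha6beta1 and alpha6beta4, lies on hg38 at chr2:172427354-172506459 on the plus strand. In S9CC13_R6, S9CC47_R5 and S9CC47_R6 it had 154, 105 and 79.98 normalized T>C reads at 0h, 14.6, 16.5 and 30.3 after 3h, and 20.9, 19.7 and 13.3 at 24h. Every later sample was below every 0h sample. The fall was 5.50-fold at 3h (log2 fold change -2.46 ± 0.40 SE, adjusted p = 1.98e-07) and 6.56-fold at 24h (-2.71 ± 0.42, adjusted p = 2.04e-08). Between 3h and 24h the T>C level moved by -0.25 ± 0.49 (95% interval -1.21 to 0.70, adjusted p = 0.97). At 3h the raw T>C reads behind these values were 11, 19 and 26.

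At 3h, ITGA6 had changed less in unconverted than in T>C reads. Unconverted reads were 241, 246 and 215 at 0h, 160, 120 and 186 at 3h, and 42.7, 31.1 and 63.9 at 24h. They were lower in every culture at each step, and the groups did not overlap. At 3h the change in unconverted reads was -0.55 ± 0.20 and was not called (adjusted p = 0.30), while at 24h it was -2.51 ± 0.24 (adjusted p = 2.47e-22). Total reads gave -0.93 ± 0.19 at 3h (adjusted p = 1.32e-04), -2.54 ± 0.22 at 24h (adjusted p = 7.58e-29) and -1.61 ± 0.24 from 3h to 24h (adjusted p = 2.91e-09).

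The share of ITGA6 reads with a T>C conversion was 37.8%, 31.8% and 27.5% at 0h, dropped to 6.59%, 11.4% and 14.1% at 3h and was 33.3%, 41.3% and 19.6% at 24h. The 3h samples lay below all the others, and the 0h and 24h samples overlapped. The difference between the change in T>C and in unconverted reads was tested in a fit of both kinds of reads, chosen after results were known. It was -1.85 ± 0.43 at 3h (adjusted p = 0.00775), making ITGA6 the 1 of 20 genes called there, where 0.334% of 11361 genes were called. At 24h it was -0.25 ± 0.44 for ITGA6 (adjusted p = 1.00), and 0 of 20 genes were called, with 3 at an unadjusted p under 0.05, where 0.0176% of all genes were called.

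Some ITGA6 calls in T>C reads were lost with a culture left out: without S9CC13_R6 the change was -2.03 at 3h (adjusted p = 0.24) and -2.75 at 24h (adjusted p = 0.19), and without S9CC47_R6 it was -2.73 at 24h (adjusted p = 0.12). The difference between the change in T>C and in unconverted reads at 3h was -1.41 without S9CC13_R6 and -1.93 without S9CC47_R5, with adjusted p of 1.00 and 0.27. The call in total reads at 3h was also lost without either of these cultures (-0.98, adjusted p = 0.26, and -0.78, adjusted p = 0.14). Within batch R6 alone the T>C changes were -2.40 at 3h and -2.93 at 24h, with adjusted p of 0.00336 and 8.78e-04. LIN28A, a pluripotency marker, also fell in T>C reads, by 0.53 at 3h and by 0.35 at 24h on the log2 scale. DPPA4, the other pluripotency marker tested, was not called (0.00 ± 0.18 at 3h and 0.11 ± 0.19 at 24h). The part of pluripotent cells in the ITGA6 result was not tested. In whole cultures, fewer cells of a type and less RNA per cell cannot be told apart. The last exon of ITGA6 overlaps the antisense gene PDK1-AS1, whose reads cannot be told apart where strand was not used in counting.

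The promoters of the genes called in T>C or total reads that the RefSeq table holds (GRCh38.p14) are shown because the study removed a DNA-binding protein. They are ITGA6, with its 2 listed starts, ITGA8, and the first listed start of ITGB5. ITGA9 and LAMA1 are not in the table. Each sequence runs from 250 bases before the start through 30 bases of the transcript, 5′ to 3′ on the strand of the gene. Capitals mark the letters ACAAT or ATTGT (the core of SOX motifs on either strand), GGGCGG or CCGCCC (the GC box) and TATAAA or TTTATA (the TATA box).
ITGA6 first start, chr2:172427086-172427365, plus strand: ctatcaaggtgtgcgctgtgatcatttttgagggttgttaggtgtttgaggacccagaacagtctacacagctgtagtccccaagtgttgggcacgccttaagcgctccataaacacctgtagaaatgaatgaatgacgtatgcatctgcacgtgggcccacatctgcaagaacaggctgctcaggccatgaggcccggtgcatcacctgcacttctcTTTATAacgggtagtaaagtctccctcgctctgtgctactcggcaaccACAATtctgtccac
ITGA6 second start, chr2:172427336-172427615, plus strand: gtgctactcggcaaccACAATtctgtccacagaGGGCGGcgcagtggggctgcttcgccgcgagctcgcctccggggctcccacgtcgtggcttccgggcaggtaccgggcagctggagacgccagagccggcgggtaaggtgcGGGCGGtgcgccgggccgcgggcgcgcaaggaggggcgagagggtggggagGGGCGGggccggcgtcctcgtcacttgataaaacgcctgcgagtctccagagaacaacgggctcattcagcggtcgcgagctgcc
ITGA8, chr10:15719893-15720172, minus strand: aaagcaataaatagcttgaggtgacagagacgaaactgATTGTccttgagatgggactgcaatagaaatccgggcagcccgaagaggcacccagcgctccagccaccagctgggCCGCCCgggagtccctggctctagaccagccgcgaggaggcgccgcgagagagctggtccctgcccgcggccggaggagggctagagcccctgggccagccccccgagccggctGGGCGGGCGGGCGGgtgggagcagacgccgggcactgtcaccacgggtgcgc
ITGB5 first start, chr3:124901389-124901668, minus strand: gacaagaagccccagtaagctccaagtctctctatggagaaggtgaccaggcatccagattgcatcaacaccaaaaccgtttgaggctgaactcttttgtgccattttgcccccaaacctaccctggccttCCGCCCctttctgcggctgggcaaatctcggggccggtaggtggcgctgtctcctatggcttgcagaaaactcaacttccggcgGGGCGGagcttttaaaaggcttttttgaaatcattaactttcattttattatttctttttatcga
The first ITGA6 window holds a SOX core at position 17 after the start and TATA letters at -32, and no GC box. In the second window the same SOX core lies at -234, with 3 GC boxes. ITGA8 holds a SOX core at -212 and 4 GC boxes, some of which overlap, and ITGB5 holds 2 GC boxes and no SOX core. Over 34943 promoter windows of this length, 26.5% hold the SOX core letters, 11.3% the TATA letters and 15376 of them a GC box. Of 33 windows of 26 integrin and laminin genes, 9 hold the SOX core, 18 a GC box and 2 the TATA letters. A match is a description of the letters and not of binding.

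ITGA9, the alpha subunit of a receptor for tenascin-C and osteopontin, had 147, 125 and 164 normalized T>C reads at 0h, 91.3, 107 and 128 after 3h, and 83.4, 82.0 and 106 at 24h. The 24h samples lay below all 0h samples, while 3h and 0h overlapped. The change was -0.36 ± 0.21 at 3h (not called, adjusted p = 0.80) and -0.80 ± 0.23 at 24h (adjusted p = 0.0164). Total reads were 628, 597 and 638 at 0h, 519, 536 and 605 at 3h, and 446, 427 and 516 at 24h, and fell at 24h by 0.49 ± 0.12 on the log2 scale (adjusted p = 8.12e-04). The T>C call at 24h was lost without any 1 of the 3 cultures, with changes of -0.57, -0.97 and -0.70 without S9CC13_R6, S9CC47_R5 and S9CC47_R6 and adjusted p between 0.20 and 1.00. This T>C call was also lost with only the 6 samples compared, and with the culture as a replicate block plus a surrogate variable. It was kept under 7 of 12 alternatives. The call in total reads was lost without S9CC13_R6 or S9CC47_R6, at changes of -0.49 and -0.46, and with only the 6 samples compared. The last exon of ITGA9 overlaps the antisense gene ITGA9-AS1.

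ITGA4, the closest relative of ITGA9 among alpha subunits, was not called in T>C reads. Its unconverted reads went from 279, 295 and 272 at 0h to 235, 150 and 215 at 24h, with no overlap, and fell by 0.53 ± 0.18 on the log2 scale (adjusted p = 0.0404). That call was lost with edgeR, with only the 6 samples compared and without any 1 of the cultures. The changes were -0.95, -0.24 and -0.62 without S9CC13_R6, S9CC47_R5 and S9CC47_R6. Normalized T>C reads of ITGA4 at 24h were 93.9, 68.5 and 32.6, which include the lowest and the highest of its 9 values.

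LAMA1 had 281, 262 and 290 normalized T>C reads at 0h, 234, 189 and 233 after 3h, and 185, 172 and 241 at 24h. All 6 later samples were below the lowest 0h sample. The change was -0.33 ± 0.16 at 3h (not called, adjusted p = 0.66) and -0.53 ± 0.17 at 24h (adjusted p = 0.0474). Total LAMA1 reads were 1664, 1534 and 1618 at 0h and 1354, 1445 and 1479 at 24h, a change of -0.16 ± 0.09 that was not called (adjusted p = 0.30). The T>C call was lost without any 1 of the cultures (changes between -0.67 and -0.50) and with edgeR. It was also lost with only the 6 samples compared, and with the culture as a replicate block plus a surrogate variable. The call was kept under 6 of 12 alternatives.

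The other chains of laminin-111 were not called in T>C or total reads. LAMB1 had 543, 823 and 650 normalized T>C reads at 24h against 697, 661 and 663 at 0h, a change of -0.10 ± 0.14 with a 95% interval of -0.38 to 0.18 (adjusted p = 0.86). LAMC1 had 262, 273 and 329 at 24h, a change of -0.05 ± 0.18 (interval -0.40 to 0.29, adjusted p = 0.95). For both genes the groups overlapped. At 3h the changes were -0.16 ± 0.14 for LAMB1 and -0.21 ± 0.17 for LAMC1, with adjusted p of 0.95 for each. LAMA5, the alpha chain of laminin-511, had 18.8, 19.3 and 18.3 normalized T>C reads at 0h, 27.8, 29.5 and 26.8 after 3h and 31.3, 15.6 and 30.4 at 24h. It was not called at 3h (0.62 ± 0.46, adjusted p = 0.93), although its 3h samples lay above all 0h samples, nor at 24h (0.40 ± 0.49, adjusted p = 0.83).

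ITGB1 stayed within a narrow range, with 2154, 2419 and 2313 normalized T>C reads in the 3h samples, and 2396, 2457 and 2242 in the 24h samples. Its changes were -0.14 ± 0.09 at 3h (interval -0.31 to 0.04, adjusted p = 0.87) and -0.09 ± 0.09 at 24h (interval -0.28 to 0.09, adjusted p = 0.77). At both times its groups overlapped with 0h. ITGA3, the other laminin-binding alpha subunit above the limit, had too few reads for a firm statement: 7.29, 3.63 and 7.62 normalized T>C reads at 0h, 3.97, 0 and 11.7 after 3h and 0.948, 7.27 and 2.22 at 24h. Its changes were -0.38 ± 1.17 at 3h and -0.88 ± 1.24 at 24h, with adjusted p of 1.00 and 0.85.

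**Figure D3:**
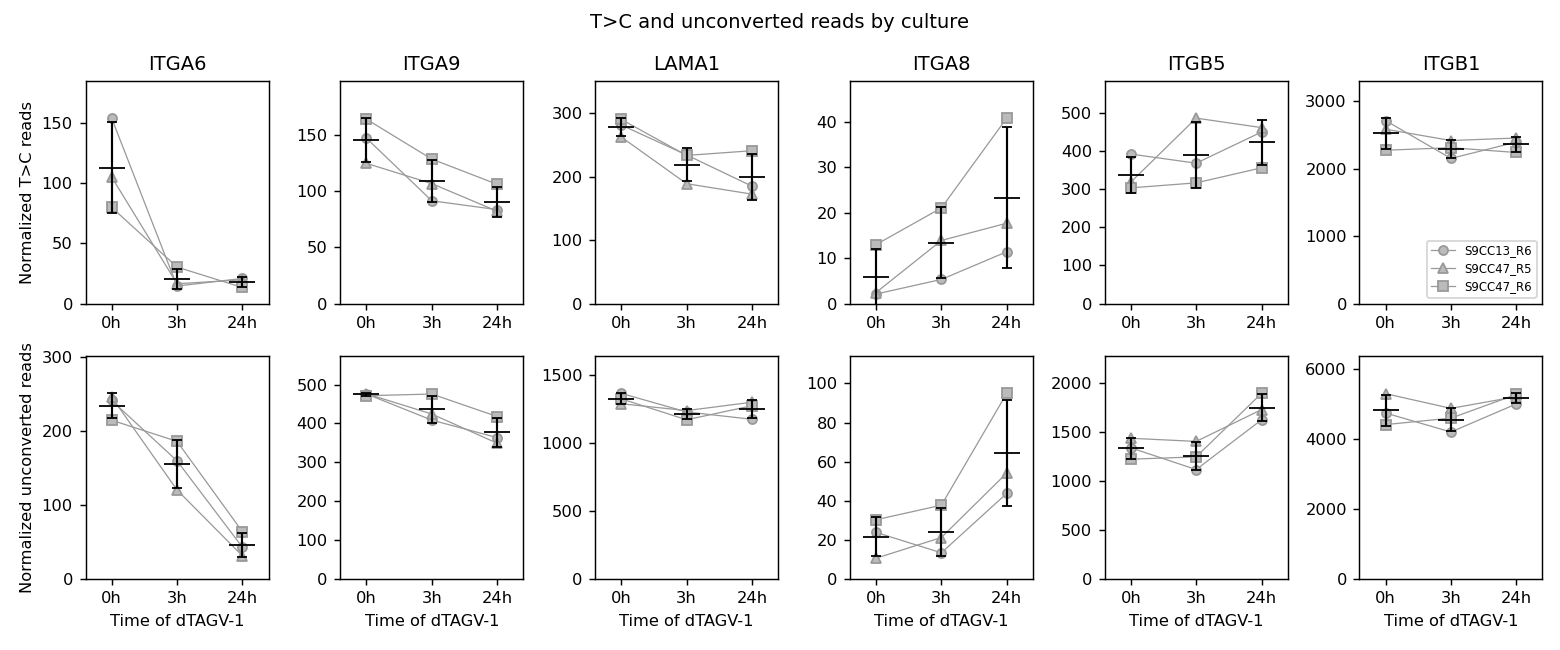
Normalized T>C reads (upper row) and unconverted reads (lower row) against the time of dTAGV-1 for 6 genes. Symbols and thin lines are the 3 cultures, dashes and bars the mean and SD, and each panel starts at 0 with a scale of its own. ITGA6 falls in T>C reads by 3h and in unconverted reads mostly by 24h, while ITGA8 and ITGB5 are higher in unconverted reads at 24h in every culture.

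A further question was which changes reached the total RNA. The limit of 1 CPM in 3 samples was applied to each kind of read, so the genes tested were not the same ones throughout. Those tested in total reads included ITGA7 and lacked LAMA3. Those tested in unconverted reads included ITGA2B and ITGA7 and lacked ITGA3, ITGB8 and LAMA3. In total reads 1 of 23 genes was called at 3h (ITGA6), where 1.89% of 11710 genes were called. At 24h 4 of 23 were called, with ITGA6 and ITGA9 lower and ITGA8 and ITGB5 higher, where 15% of all genes were called. From 3h to 24h, 3 of 23 were called in total reads (ITGA6 and ITGA9 lower, ITGB5 higher), where 5.39% of all genes were called. In T>C reads 0 of 23 were called between 3h and 24h by DESeq2, with 0 at an unadjusted p under 0.05, and 0 by edgeR, where 1.14% of all genes were called by DESeq2. In unconverted reads, 0 of 22 were called at 3h by DESeq2 and by edgeR, with 2 at an unadjusted p under 0.05 in each, where 1.1% of 11529 genes were called by DESeq2. At 24h 5 of 22 were called in unconverted reads, with ITGA6, ITGA9 and ITGA4 lower and ITGA8 and ITGB5 higher, where 12.1% were called.

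ITGB5 had 1746, 1740 and 1531 normalized total reads at 0h, 1517, 1904 and 1567 at 3h and 2074, 2175 and 2201 at 24h. The 24h samples were above all earlier ones. The rise at 24h was 1.27-fold (0.35 ± 0.10, adjusted p = 0.00699). In T>C reads ITGB5 had 368, 486 and 316 at 3h and 449, 461 and 356 at 24h, with changes of 0.14 ± 0.15 and 0.41 ± 0.16 that were not called (adjusted p = 0.99 and 0.15). The call in total reads at 24h was lost without any 1 of the cultures. Those changes lay between 0.34 and 0.37, with adjusted p between 0.17 and 0.96. The call was also lost with only the 6 samples compared, and with the replicate block and a surrogate variable (0.29, adjusted p = 0.15). ITGAV, the alpha partner of ITGB5, had 66.7, 81.0 and 89.1 normalized T>C reads at 0h, 67.5, 78.0 and 111 after 3h and 108, 105 and 89.6 at 24h. It was not called (0.15 ± 0.26 at 3h, adjusted p = 1.00, and 0.25 ± 0.27 at 24h, adjusted p = 0.80). At 24h ITGAV was nevertheless higher in all 3 cultures. Its 24h samples lay just above all 0h samples, the lowest at 89.6 against a highest of 89.1.

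ITGA8 had 26.2, 12.8 and 43.4 normalized total reads at 0h, 18.8, 34.9 and 58.9 at 3h, and 55.1, 71.5 and 136 at 24h. The 24h samples lay above all 0h samples, and each culture was highest at 24h. The rise at 24h was 2.33-fold (1.22 ± 0.41, adjusted p = 0.0340). In T>C reads it had 2.08, 2.42 and 12.9 at 0h, 5.29, 13.9 and 21.0 at 3h and 11.4, 17.7 and 40.7 at 24h, higher in all 3 cultures but overlapping between groups, since S9CC47_R6 was already high at 0h. These T>C changes were 1.28 ± 0.73 at 3h (adjusted p = 0.78) and 1.25 ± 0.74 at 24h (adjusted p = 0.49). With the culture as a replicate block, the 24h change in T>C reads was 2.11 and was called (adjusted p = 0.0462), while with the block and the surrogate variable it was 2.41 and was not called (adjusted p = 0.17). Without S9CC13_R6, S9CC47_R5 or S9CC47_R6 the change in total reads was 2.69, 0.33 or 1.54. None of these was called (adjusted p between 0.28 and 0.86), nor was the change with only the 6 samples compared.

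The genes not called at 24h in T>C reads were 20 in number, with log2 fold changes from -2.55 ± 1.11 (ITGB7, adjusted p = 0.24) to 3.32 ± 1.44 (LAMC3, adjusted p = 0.24). Both ends of that range were genes with few reads. LAMC3 had 42 T>C reads over the 9 samples and ITGB7 had 55. LAMA4, the alpha chain of laminins of vessels and muscle, was lower in all cultures at 24h, with 31.3, 21.8 and 14.5 normalized T>C reads at 0h and 5.69, 9.35 and 6.67 at 24h. Its groups did not overlap, and its change of -1.57 ± 0.65 was not called (adjusted p = 0.20).

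The T>C share of a gene's reads reports how much of its RNA was made during the pulse, and also depends on how many T bases the counted region holds. Among the 14 genes with at least 1000 total reads over the 9 samples, the mean share at 0h ran from 7.60% ± 0.99 (SD) for LAMB2 to 34.8% ± 0.40 for ITGB1, with a median of 19.7%. ITGA6 (32.3% ± 5.16) was next to ITGB1. LAMA1, LAMB1 and LAMC1 had shares of 17.6% ± 1.05, 18.9% ± 1.85 and 14.7% ± 0.71. LAMB2 had the lowest share of the 14 genes in all 9 samples, between 5.32% and 8.48%.

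**Figure D4:**
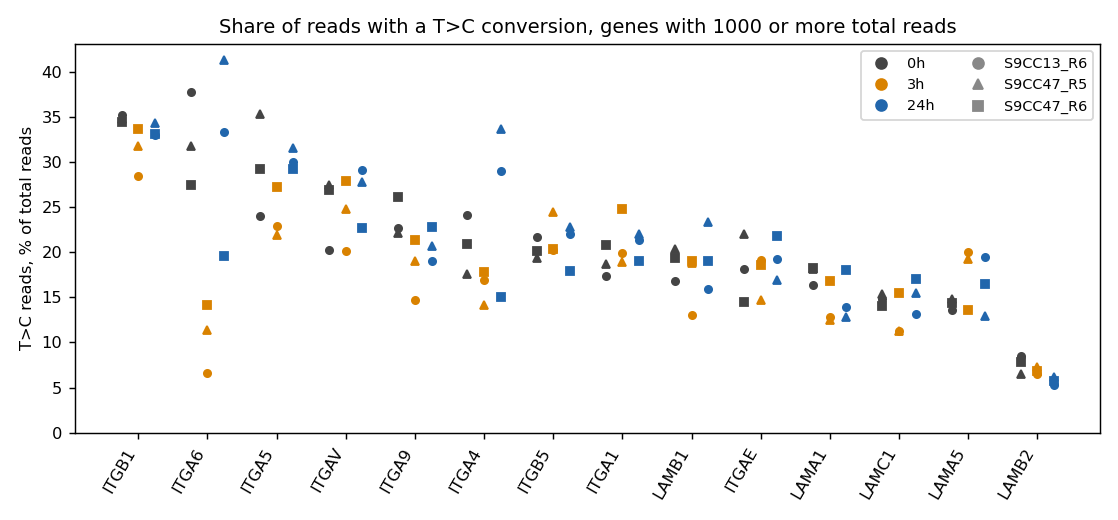
Share of total reads that carried a T>C conversion (percent, from 0) for the 14 genes with at least 1000 total reads, ordered by their mean at 0h. Each point is 1 sample, with colours for the time of dTAGV-1 and symbols for the culture. The 3 orange points of ITGA6 at 3h, at 6.59%, 11.4% and 14.1%, lie below its points at 0h and 24h.

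Proteins that work with integrins and laminins were examined as lists, chosen with earlier results of these data known. Of 42 cytoplasmic adaptors and adhesion kinases, 38 were tested in T>C reads. VASP, an actin regulator of focal adhesions, rose at 3h, as 1 of 38. VASP and FERMT2, the integrin activator kindlin-2, rose at 24h, as 2 of 38, and none fell. These shares of 2.63% and 5.26% were near the 1.79% and 4.98% called over all genes. VASP went from 126, 171 and 129 normalized T>C reads at 0h to 274, 236 and 267 at 24h, with no overlap (0.85 ± 0.19, adjusted p = 3.56e-04). FERMT2 went from 454, 634 and 529 to 993, 757 and 1288, also with no overlap (0.71 ± 0.13, adjusted p = 1.79e-05). The call of VASP was lost without S9CC13_R6 or S9CC47_R6 and that of FERMT2 without S9CC13_R6. The median log2 fold change of the list at 24h was 0.03. Of 14 membrane partners of integrins (tetraspanins, syndecans and the like), 0 of 13 tested were called in T>C reads at either time.

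Of 24 basement membrane components and other laminin receptors, 18 were tested. Since the list was chosen with earlier results known, its counts and median are a description and no independent test. At 3h 2 fell (FREM1 and NID1) and at 24h 4 fell (COL18A1, FREM1, SMOC1 and NID1), and none rose. Over all genes 1.79% were called at 3h and 4.98% at 24h. The median of the list was -0.12 at 3h and -0.37 at 24h, against -0.01 and 0.00 over all genes. NID1, which links laminin to collagen IV, went from 308, 261 and 275 normalized T>C reads at 0h to 151, 136 and 161 at 3h and 126, 118 and 105 at 24h, changes of -0.93 ± 0.18 and -1.25 ± 0.19 (adjusted p = 3.83e-05 and 8.17e-09). FREM1, a basement membrane protein of the Fraser complex, went from 144, 181 and 143 to 25.1, 29.5 and 54.8 at 3h and 52.1, 35.3 and 77.1 at 24h, with changes of -2.01 ± 0.27 and -1.88 ± 0.28 (adjusted p = 9.52e-11 and 4.05e-09). In both genes every later sample was below every 0h sample.

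SMOC1, a secreted matricellular protein of basement membranes, had 369, 131 and 279 normalized T>C reads at 0h and 138, 38.4 and 60.01 at 24h (-1.47 ± 0.22, adjusted p = 1.16e-08). Its groups overlapped because the cultures differed at 0h, while each culture fell. COL18A1, the collagen from which endostatin is cut, had 31.3, 37.5 and 33.5 at 0h and 9.48, 1.04 and 3.70 at 24h (-2.66 ± 0.63, adjusted p = 0.00169). The 24h call was lost without any 1 culture for COL18A1, without S9CC47_R6 for FREM1 and SMOC1, and without S9CC13_R6 or S9CC47_R6 for NID1.

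Of 22 other integrin ligands, 12 were tested, and at both times 1 fell (TGFBI) and 1 rose (ICAM1), where 1.79% and 4.98% of all genes were called at 3h and 24h. TGFBI, an RGD-containing matrix protein induced by TGF-beta, had 891, 955 and 893 normalized T>C reads at 0h, 549, 631 and 551 after 3h and 432, 540 and 447 at 24h, with no overlap between 0h and either later group. Its changes were -0.67 ± 0.11 (adjusted p = 1.03e-07) and -0.95 ± 0.11 (adjusted p = 9.26e-15). ICAM1, a ligand of leukocyte integrins, had 9.38, 1.21 and 2.29 at 0h and 15.2, 15.6 and 11.1 at 24h (2.13 ± 0.74, adjusted p = 0.0874), and its 24h call was kept under 3 of 12 alternatives.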

How the data were processed

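The authors deposited raw read counts per gene symbol, as a table of all reads and a table of T>C reads. In their methods, first reads of QuantSeq 3′ libraries were trimmed, then mapped and counted with slamdunk; its 3′ regions and use of strand are not given in the sources used here. The submitters' processing notes name hg38. Symbols were matched to GENCODE release 44. All 38 genes matched, and in all 18769 of the 18970 symbols were protein-coding.

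Raw counts of all 9 samples were fitted with DESeq2 1.42.0 (R 4.3.3) with terms for time, differentiation batch and 1 surrogate variable (svaseq, sva 3.50.0), following the study's methods. Tests covered coding genes that reached 1 CPM in 3 samples, and Benjamini-Hochberg adjustment covered all of them. T>C and unconverted reads were compared in a joint fit with a term per library and interactions of read kind with batch and with time. The pipeline was tested on simulated data. The p-values measure the spread of the 9 samples left after batch and the surrogate variable. The fit had no term for culture, although the same 3 cultures, from 2 clones and 2 batches, were used at each time. The SE of a change holds the spread between samples as well as counting error, which depends on the read depth given in the report.

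Members, gene lists and tests were chosen with earlier results of these data known. Named with full values were ITGA6, ITGA3, ITGB1, ITGAV, ITGB5, LAMA5, LAMB1, LAMC1, ITGB4 (raw reads) and all members called, with up to 4 called genes of each other list by size of change at 24h. Other genes were named as the ends of a range, the most read below the limit or, as ITGA4 and LAMA4, after their values were seen. Some genes are not reported here. Clone and batch in the titles pair samples across times. Deviations from group means correlated between samples of 1 culture with a mean r of 0.13 (0.017 to 0.29) over 9 pairs in T>C reads and 0.27 (-0.057 to 0.61) in total reads, and the block by culture was an alternative. The alternatives are edgeR 4.0.16, TMM, other covariates, filters, sample sets and thresholds.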

Additional observations from a re-analysis of the deposited data

Results flagged for a closer look

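The change against 0h differed between 3h and 24h for 3 genes in total reads, by the direct test of 24h against 3h in DESeq2. For ITGA6 the difference was -1.61 (adjusted p = 2.91e-09), lower at 24h in all 3 cultures. For ITGA9 it was -0.35 (adjusted p = 0.0949), lower in all 3 cultures, and for ITGB5 it was 0.35 (adjusted p = 0.0271), higher in all 3 cultures. The calls of ITGA9 and ITGB5 were lost without any 1 of the cultures, at -0.36, -0.37 and -0.24 for ITGA9 and 0.29, 0.44 and 0.38 for ITGB5 without S9CC13_R6, S9CC47_R5 and S9CC47_R6. The call of ITGA9 was also lost with the culture as a replicate block (-0.26, adjusted p = 0.21), and was kept under 2 of 11 alternatives. That of ITGB5 was kept with the block (0.38, adjusted p = 0.0192). It was lost with the block and a surrogate variable (0.28, adjusted p = 0.50), and with only the 6 samples compared.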

How the results depend on the processing

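Read depth limits the low genes most: at 3h ITGA6 had 11 to 26 T>C reads per sample. Each culture left out leaves 2 per time. Counts of called genes left out 1 culture ran from 0 to 1 at both times for T>C reads, from 0 to 1 for total reads at 3h, from 1 to 2 for total reads at 24h, at 1 for total reads from 3h to 24h and for unconverted reads at 24h, and from 0 to 1 for the joint fit of T>C and unconverted reads at 3h. With only the 6 samples compared, 1 gene was called in T>C reads at 24h, 1 in total reads at 24h, 1 from 3h to 24h and 1 in unconverted reads at 24h. With the replicate block and a surrogate variable, the counts were 1 in T>C reads at 24h, 1 in total reads from 3h to 24h and 2 in unconverted reads at 24h, where edgeR called 3. In paired fits with the replicate block alone, the counts stayed within 1.5 times of those reported. ITGA8 in T>C reads at 24h gained its call under that block (2.11).

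No called change reversed. Of 24 called gene results, 270 alternative values were computed, and 202 were still called, while 68 kept the direction only. Changes of genes not called crossed 0 in these cases: LAMC1 in T>C reads at 24h was 0.020 with edgeR, 0.013 without the surrogate variable, 0.0097 with only the 6 samples and 0.0089 with the replicate block. With 1 culture left out, T>C changes at 3h ran from -0.012 to 0.19 for ITGAV, -0.039 to 0.37 for ITGB5 and -0.30 to 0.021 for LAMB1, and at 24h from -3.07 to 0.082 for ITGA3 and -0.41 to 0.26 for LAMB1. For ITGA6, the change from 3h to 24h in T>C reads ran from -0.72 to 0.30, and the difference between T>C and unconverted changes at 24h from -0.61 to 0.075. The cause was not tested.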
